A study of Homo sapiens with 4 samples.

Results

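The glycolysis and pentose phosphate genes examined here are a named set of 35 human genes, chosen by symbol: the glucose transporters, the enzymes from hexokinase to pyruvate kinase, the PFKFB regulators, lactate dehydrogenase, pyruvate dehydrogenase and its kinases, the lactate transporters, and 6 enzymes of the pentose phosphate pathway. Of the 35, 33 had a line among the 18840 genes of the data, and 32 reached a mean of at least 1 CPM (reads scaled to a common library size) over the 4 libraries. LDHA and PDK1 are not analysed here. The glucose transporter SLC2A3 fell below the expression filter, with 1 read in the miR-105-labelled library, 5 in the MYC-labelled library, 2 in the GFP library and 8 in the vector library.

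Poly(A) RNA was sequenced from MCF10A, a non-tumorigenic human mammary epithelial line, after stable transduction with 1 of 4 pBabe retroviral constructs. The constructs carried the microRNA miR-105, the transcription factor MYC, green fluorescent protein (GFP) or no insert (vector), and each had 1 library. All 4 lines had been transduced with the same retroviral backbone and grown in DMEM/F12 medium with hydrocortisone, cholera toxin, EGF, insulin and horse serum. The sources used here do not say whether each line was a pool or a single clone.

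Glycolysis splits glucose into pyruvate, which is either reduced to lactate and exported or oxidised in mitochondria. The pentose phosphate pathway branches off at glucose 6-phosphate and yields NADPH and ribose for nucleotides. Most steps have more than a single enzyme gene, and cells differ in which isozyme they use. HK2, PFKFB3 and SLC16A3, for example, are textbook inducible forms that are abundant in many tumours, and several glycolytic genes are known targets of MYC and of the hypoxia factor HIF-1.

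Libraries held 6859698 reads for miR-105, 9795159 for MYC, 14025115 for GFP and 9138429 for vector, of which these genes took 1.70%, 1.17%, 0.880% and 1.09% in the same order. With 1 library per construct there was no replicate, so the comparisons rest on fold thresholds and not on a test, and every interval below is a 95% counting interval that leaves out the spread between cultures. MYC mRNA stood at 463 CPM in the miR-105-labelled library, 232 CPM in the MYC-labelled library, 198 CPM in GFP and 207 CPM in vector. The transcript named by the MYC label was thus highest in another library, and each library is called by its label only. All 12 epithelial markers measured were detected in every library, with sums of 14373 CPM (miR-105), 10925 CPM (MYC), 15255 CPM (GFP) and 16331 CPM (vector). Single markers moved in both directions: by the threshold explained below, 5 were higher and 4 lower with the miR-105 label, and 3 higher and 6 lower with the MYC label. KRT17 stood at 766 CPM (miR-105), 1777 CPM (MYC), 5131 CPM (GFP) and 6927 CPM (vector), and TP63 at 6.12 CPM, 77.2 CPM, 14.4 CPM and 7.14 CPM in the same order. ITGA6 stood at 918 CPM with the miR-105 label, 8.76-fold above vector and 5.40-fold above GFP. Summed levels of markers of other cells ran from 19.8 to 141 CPM for 6 fibroblast genes, 19.2 to 85.5 CPM for 5 immune genes, 3.61 to 92.1 CPM for 4 endothelial genes and 0.0948 to 0.941 CPM for 4 erythroid genes. COL3A1 had no read in any library, and PTPRC had none in 3 of 4. Other genes of these lists were detected: 2 fibroblast, 2 immune and 2 endothelial genes passed the filter. The highest mean over the 4 libraries was 76.0 CPM for a fibroblast gene, 42.9 CPM for an immune gene and 39.1 CPM for an endothelial gene.

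Glycolytic enzyme genes stood higher in the miR-105-labelled library at most steps, whereas the MYC-labelled library was higher at some steps and lower at others. In bulk RNA, a change in the share of cells and a change in RNA per cell cannot be told apart. A gene was counted as higher or lower when it lay at least 1.5-fold past both the GFP and the vector library on log2(CPM + 0.5). In the miR-105-labelled library 17 of the 32 genes were higher, 53.1%, beside 24.0% of all 12484 genes that passed the filter. There 3 of 32 were lower, 9.38%, beside 24.7% of all genes: BPGM, PDK2 and PGLS. In the MYC-labelled library 8 of 32 were higher, 25%, beside 16.6% of all genes, and 7 were lower, 21.9%, beside 17.2%. At the stricter threshold of 2-fold, 9 were higher beside 14.7% of all genes and 2 lower beside 16.6% with the miR-105 label, and 4 were higher beside 9.03% and 4 lower beside 10.4% with the MYC label. The median log2 fold over the controls was 0.81 in the miR-105-labelled library and 0.29 in the MYC-labelled library, where the medians of all genes were 0.01 and 0.04 in the same order.

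Within the set, the 16 enzymes from hexokinase to pyruvate kinase had 10 higher and 1 lower in the miR-105-labelled library, 62.5% and 6.25% beside 24.0% and 24.7% of all genes, and their median log2 fold was 0.94. In the MYC-labelled library the same 16 had 4 higher and 3 lower, 25% and 18.8% beside 16.6% and 17.2% of all genes, and the median was 0.22. The 6 pentose phosphate enzymes had 3 higher and 1 lower with the miR-105 label, 50% and 16.7%, and 1 higher and 0 lower with the MYC label, 16.7% and 0%, beside the same shares of all genes. Levels summed over the 33 genes with a line came to 18274 CPM in the miR-105-labelled library, 10911 CPM in the MYC-labelled library, 8919 CPM in GFP and 10794 CPM in vector. Every one of the 32 genes lay at 6.14 CPM or above in each library, so none passed the filter through a single high library. When the controls were treated as replicates of 1 group, which leaves 1 residual degree of freedom, edgeR's quasi-likelihood test at an adjusted p of 0.05 called 13 of the 32 higher and 3 lower in the miR-105-labelled library, beside 19.5% and 19.8% of all genes. It called 4 higher and 3 lower in the MYC-labelled library, beside 10.9% and 11.8%. DESeq2 called 10 higher and 2 lower for miR-105, beside 12.9% and 14.0%, and 4 higher and 5 lower for MYC, beside 5.63% and 8.43%. These calls compare libraries, not conditions. The shared controls mean that the folds of the miR-105-labelled and MYC-labelled libraries are not independent of each other.

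**Figure D1:**
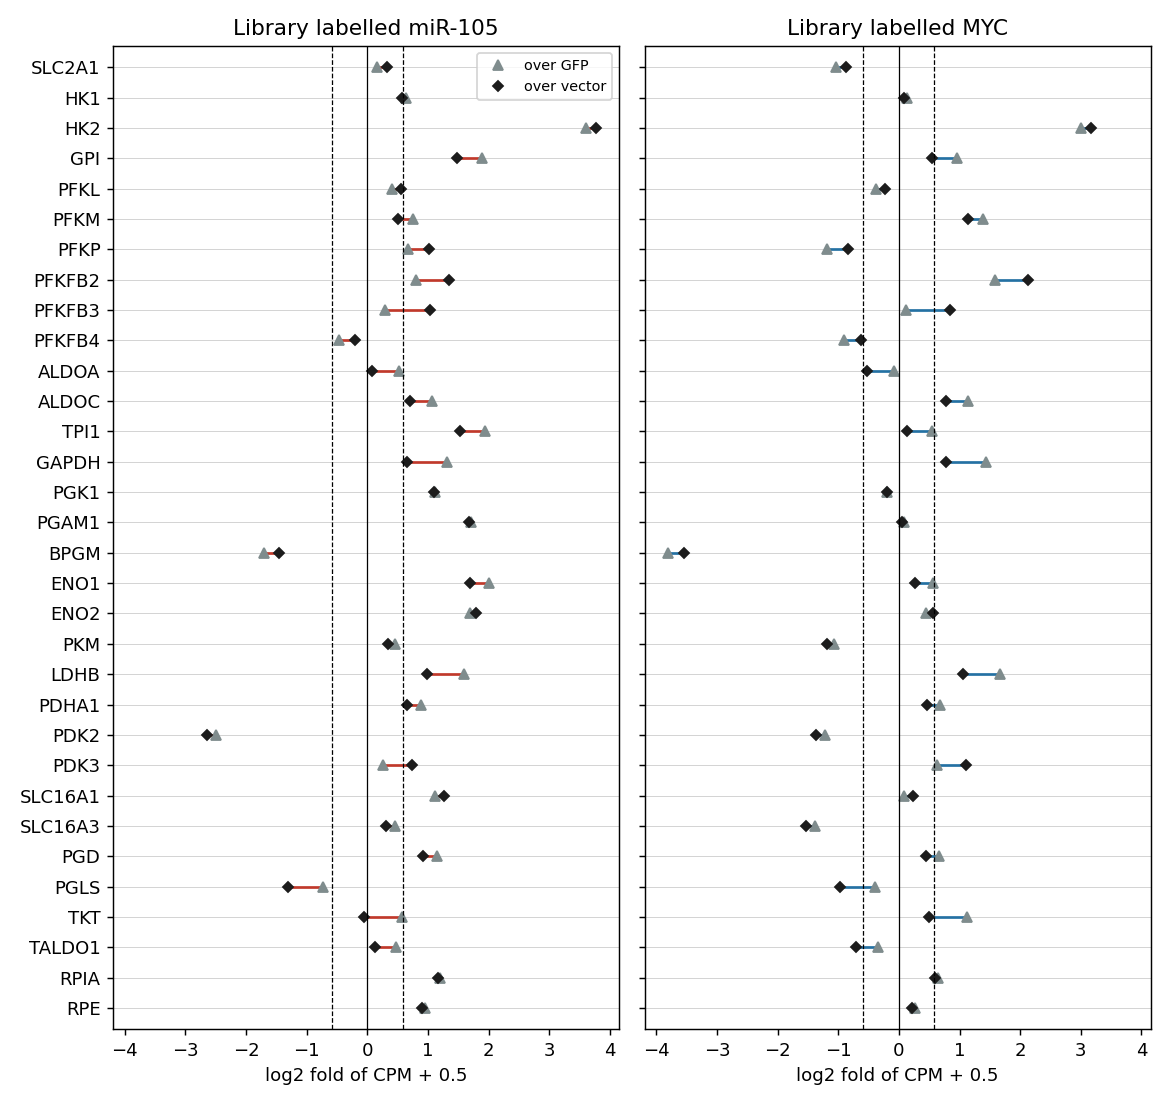
Log2 fold of CPM + 0.5 for the 32 genes, ordered by pathway step, in the miR-105-labelled library (left) and the MYC-labelled library (right), over the GFP library (triangles) and over the vector library (diamonds). Dashed lines mark 1.5-fold; 17 genes lie right of the upper line against both controls with the miR-105 label and 8 with the MYC label, and the lowest are PDK2 (left) and BPGM (right).

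The promoters of 4 genes that lay at the ends of this range are shown to place the motifs counted in the set: HK2 and ENO1, higher in the miR-105-labelled library, and BPGM and PDK2, lower there. Each is the RefSeq window of 250 bases before to 50 bases after an annotated start, GRCh38.p14, written 5′ to 3′ on the gene's strand. Capitals mark the E-box CACGTG, the site bound by MYC and MAX, and the core of the hypoxia element, ACGTG or GCGTG, on either strand (CACGT or CACGC in reverse). ACGTG lies inside the E-box, so an E-box counts for both.
HK2, chr2:74834920-74835219, plus strand: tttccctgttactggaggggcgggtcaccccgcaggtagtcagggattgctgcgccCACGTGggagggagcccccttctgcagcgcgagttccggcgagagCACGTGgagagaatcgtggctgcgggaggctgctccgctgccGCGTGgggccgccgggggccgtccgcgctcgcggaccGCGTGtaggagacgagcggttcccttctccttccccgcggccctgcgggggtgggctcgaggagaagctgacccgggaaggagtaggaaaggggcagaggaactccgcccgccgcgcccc
ENO1, chr1:8878637-8878936, minus strand: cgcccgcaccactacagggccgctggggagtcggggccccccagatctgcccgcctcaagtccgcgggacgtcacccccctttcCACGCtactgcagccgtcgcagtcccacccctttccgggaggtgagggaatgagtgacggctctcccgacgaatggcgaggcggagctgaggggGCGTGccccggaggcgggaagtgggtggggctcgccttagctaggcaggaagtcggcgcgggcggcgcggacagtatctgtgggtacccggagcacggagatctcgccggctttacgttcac
BPGM, chr7:134646603-134646902, plus strand: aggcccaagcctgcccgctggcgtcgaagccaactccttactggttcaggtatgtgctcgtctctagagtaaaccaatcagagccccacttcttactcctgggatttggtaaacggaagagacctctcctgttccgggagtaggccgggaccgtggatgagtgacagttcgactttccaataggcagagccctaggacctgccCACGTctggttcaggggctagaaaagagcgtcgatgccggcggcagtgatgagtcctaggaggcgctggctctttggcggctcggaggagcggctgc
PDK2, chr17:50095101-50095400, plus strand: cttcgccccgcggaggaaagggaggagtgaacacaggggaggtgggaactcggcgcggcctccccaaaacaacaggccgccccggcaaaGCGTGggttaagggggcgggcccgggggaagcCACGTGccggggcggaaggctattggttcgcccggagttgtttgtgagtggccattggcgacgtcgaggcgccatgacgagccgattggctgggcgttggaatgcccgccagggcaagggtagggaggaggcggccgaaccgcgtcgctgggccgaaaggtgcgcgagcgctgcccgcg
The HK2 window shown held 2 E-boxes and the PDK2 window shown 1, while the ENO1 and BPGM windows held only the shorter letters. HK2 has 2 windows in the table and PDK2 has 3, and those shown were picked as the windows of each gene with an E-box; the other windows of both genes held none. ENO1 and BPGM have 1 window each. Of the 33 genes with a line, 30 had a promoter in the table, and 6 of these had an E-box in at least 1 window, 20.0%, beside 8.77% of 27305 genes. The 6 were HK2, PFKFB3, ALDOA, ALDOC, GAPDH and PDK2. By window the shares were 10.7% of 56 and 7.26% of 35116. The hypoxia letters occurred in 25 of 30 genes, 83.3%, beside 52.4% of the 27305 genes, and in 60.7% of the windows of the set beside 48.4% of all windows. Those 27305 genes were not limited to genes that passed the expression filter, unlike nearly all of the set, so the shares compare unlike groups. The set also had more windows per gene, 56 for 30 genes beside 35116 for 27305, which raises a share counted by gene. A match describes these letters only. Of the 6 genes with an E-box, HK2, ALDOC and GAPDH were higher with both labels and PDK2 was lower with both. ALDOA and PFKFB3 were past the threshold with neither, and a link between the letters and the levels was not tested.

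SLC2A1, which encodes GLUT1, the main glucose transporter of many epithelia, was lower with the MYC label. The gene (1:42925375-42959176, GRCh38) stood at 188 CPM in the miR-105-labelled library, 81.6 CPM in the MYC-labelled library, 168 CPM in GFP and 149 CPM in vector. The MYC-labelled library was the low one, 1.83-fold (1.68 to 2.0) below vector and 2.06-fold (1.90 to 2.23) below GFP. SLC2A3, which encodes the neuronal GLUT3, made up at most 0.541% of the pair per transcript length in any library, and it shares near-identical sequence with SLC2A14.

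Hexokinase traps glucose as glucose 6-phosphate, and HK2 had the largest fold above the controls of the 32 genes in both labelled libraries. HK2 (2:74833981-74893359), the inducible mitochondrial-bound form, stood at 108 CPM in the miR-105-labelled library, 71.2 CPM in the MYC-labelled library, 8.45 CPM in GFP and 7.46 CPM in vector. Both labelled libraries lay far above both controls. In the miR-105-labelled library HK2 was 14.4-fold (11.3 to 18.8) above vector and 12.7-fold (10.5 to 15.6) above GFP. The miR-105-labelled level was also 1.51-fold (1.36 to 1.68) that of the MYC-labelled library. HK1 (10:69269984-69401884), the form expressed in most tissues, stood at 354 CPM (miR-105), 251 CPM (MYC), 228 CPM (GFP) and 238 CPM (vector), just short of the threshold against vector at 1.49-fold (1.40 to 1.58) with the miR-105 label.

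Per transcript length, HK2 made up 16.0% (14.8 to 17.2) of HK1 and HK2 in the miR-105-labelled library and 15.1% (14.0 to 16.1) in the MYC-labelled library, against 2.27% (1.88 to 2.71) in GFP and 1.92% (1.5 to 2.43) in vector. By coding length HK2 held 23.3% (miR-105), 22.1% (MYC), 3.58% (GFP) and 3.05% (vector), so the size of its share depended on the length used. HK1 remained the larger part in all 4 libraries by both lengths. The ratio of the reads of HK2 to those of HK1, which needs no scaling or length, was 9.69-fold (7.51 to 12.5) that of vector and 8.20-fold (6.69 to 10.0) that of GFP with the miR-105 label. The MYC-labelled ratio was 9.04-fold (7.02 to 11.6) and 7.65-fold (6.26 to 9.36) against the same controls. The controls differed by 1.18-fold (0.873 to 1.60), and the miR-105-labelled over the MYC-labelled ratio was 1.07 (0.953 to 1.21), so for this pair neither of those differences exceeded counting error.

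**Figure D2:**
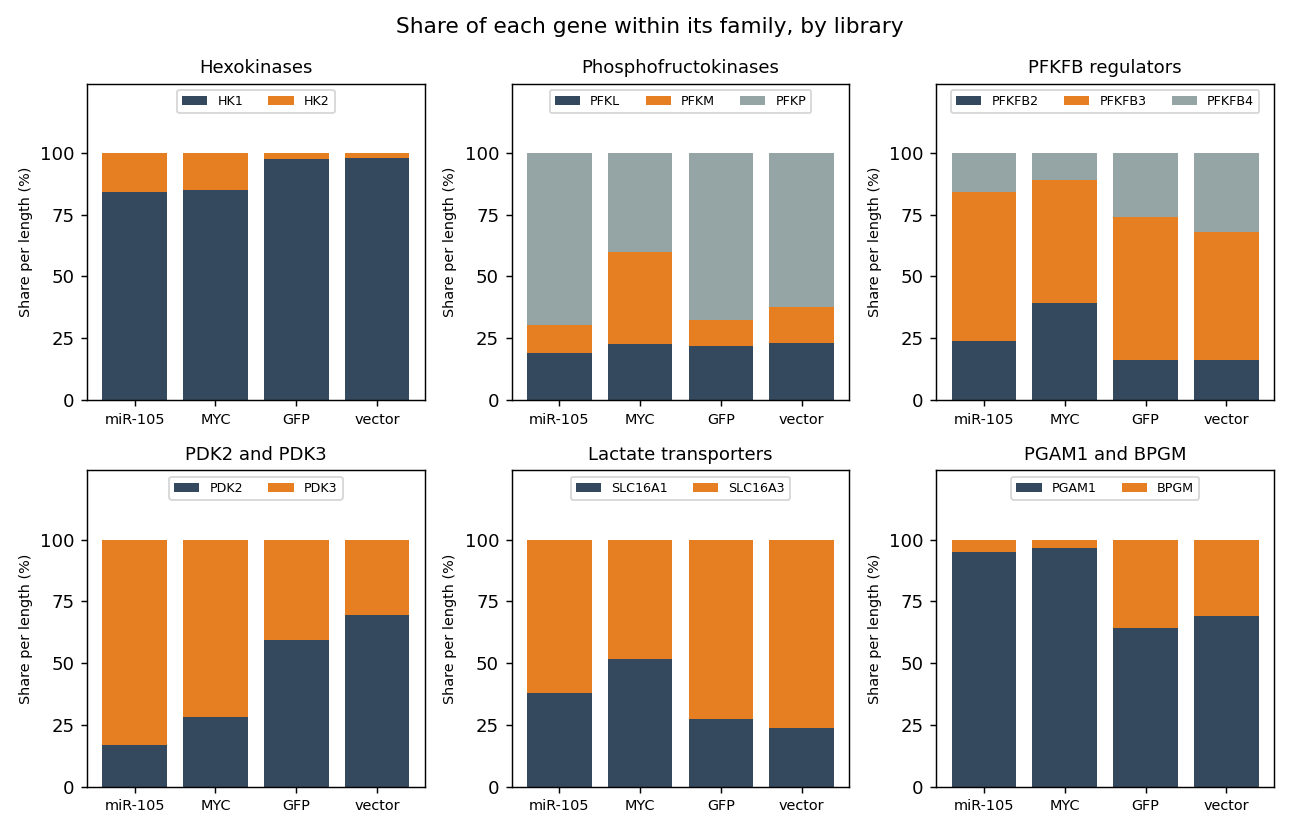
Share of each gene in its family, in percent of reads per kilobase of transcript, in each library; the bars of a family sum to 100%. HK2 takes 16.0% and 15.1% in the miR-105-labelled and MYC-labelled libraries and about 2% in the controls, PFKM 37.3% in the MYC-labelled library, and BPGM under 5% in both labelled libraries.

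Glucose 6-phosphate isomerase, GPI (19:34359480-34402413), stood at 702 CPM with the miR-105 label, 367 CPM with the MYC label, 189 CPM in GFP and 251 CPM in vector. The miR-105-labelled library was 2.79-fold (2.66 to 2.94) above vector and 3.72-fold (3.55 to 3.91) above GFP. The MYC-labelled library lay between it and the controls, 1.46-fold above vector.

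Phosphofructokinase commits sugar to glycolysis, and its 3 isozymes were arranged differently in the MYC-labelled library. PFKM (12:48105139-48146404), the muscle form, stood at 104 CPM (miR-105), 163 CPM (MYC), 61.8 CPM (GFP) and 73.7 CPM (vector). PFKP (10:3066333-3137712), the platelet form, stood at 522 CPM (miR-105), 144 CPM (MYC), 327 CPM (GFP) and 258 CPM (vector). PFKL, the liver form, stood at 156 CPM (miR-105), 90.2 CPM (MYC), 117 CPM (GFP) and 106 CPM (vector). The MYC-labelled library was thus highest for PFKM and lowest for PFKP and PFKL. There PFKM was 2.21-fold (2.02 to 2.42) above vector and 2.64-fold (2.43 to 2.87) above GFP, while PFKP was 1.80-fold (1.68 to 1.92) below vector and 2.27-fold (2.14 to 2.41) below GFP. PFKP was instead higher with the miR-105 label, 2.02-fold (1.91 to 2.13) over vector and 1.60-fold (1.53 to 1.67) over GFP.

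PFKP was the larger part of the family per length in 3 libraries, at 69.6% with the miR-105 label, 67.5% in GFP and 62.2% in vector. In the MYC-labelled library PFKP held 39.9% and PFKM 37.3%, but which of them was larger there depended on the length used: by coding length PFKM held 41.2% and PFKP 36.1%, and by reads alone 41.1% (39.6 to 42.6) and 36.2% (34.8 to 37.7). PFKP was the larger in the other 3 libraries by these measures too. Per transcript length PFKM held 11.4% with the miR-105 label, 10.5% in GFP and 14.6% in vector. The PFKM to PFKP read ratio of the MYC-labelled library was 3.97-fold (3.56 to 4.43) that of vector and 6.0-fold (5.42 to 6.63) that of GFP. The miR-105-labelled ratio was 0.70-fold (0.621 to 0.788) that of vector and 1.06-fold (0.945 to 1.18) that of GFP, and so lay between the controls, of which GFP was 0.663-fold (0.593 to 0.742) vector. Of the exon bases of PFKM, 11.7% also lie in SENP1 on the opposite strand, which averaged 24.7 CPM, and the sources used here give no strand setting for the counting.

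The PFKFB genes encode bifunctional enzymes that make and remove fructose 2,6-bisphosphate, the activator of phosphofructokinase. PFKFB2 (1:207034366-207081024), the heart form, stood at 31.8 CPM (miR-105), 55.1 CPM (MYC), 18.1 CPM (GFP) and 12.2 CPM (vector). PFKFB4, known from testis and induced in hypoxia, stood at 10.5 CPM (miR-105), 7.68 CPM (MYC), 14.7 CPM (GFP) and 12.1 CPM (vector). PFKFB3, the form with the highest kinase to phosphatase ratio, stood at 50.3 CPM (miR-105), 43.9 CPM (MYC), 40.7 CPM (GFP) and 24.2 CPM (vector). PFKFB2 was highest and PFKFB4 lowest in the MYC-labelled library, whereas PFKFB3 separated vector from the other 3 libraries. PFKFB2 was 2.61-fold (2.06 to 3.31) above vector and 1.76-fold (1.46 to 2.13) above GFP with the miR-105 label. PFKFB4 was 1.58-fold (1.17 to 2.13) below vector and 1.92-fold (1.48 to 2.51) below GFP with the MYC label.

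Per transcript length PFKFB3 was the larger part of its family, at 60.2% (miR-105), 49.7% (MYC), 57.7% (GFP) and 51.4% (vector). In the MYC-labelled library that order turned with the length used, since by coding length PFKFB2 held 52.0% and PFKFB3 40.2%, and by reads alone 51.6% (48.7 to 54.6) and 41.2% (38.3 to 44.1). PFKFB2 held 24.1% (miR-105) and 39.4% (MYC), against 16.2% (GFP) and 16.4% (vector), where PFKFB4 at 26.1% and 32.2% in GFP and vector lay above it. By coding length PFKFB2 held 24.6% and PFKFB4 21.6% in GFP, against 25% and 26.7% in vector, so the order of these genes in GFP also depended on the length used. The change of their read ratio between libraries needs no length. The PFKFB2 to PFKFB4 read ratio was 7.11-fold (5.01 to 10.1) that of vector and 5.85-fold (4.35 to 7.88) that of GFP with the MYC label. The miR-105-labelled library had 3.0-fold (2.05 to 4.39) the ratio of vector and 2.47-fold (1.77 to 3.45) that of GFP, and between GFP and vector 1.21-fold (0.882 to 1.67).

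**Figure D3:**
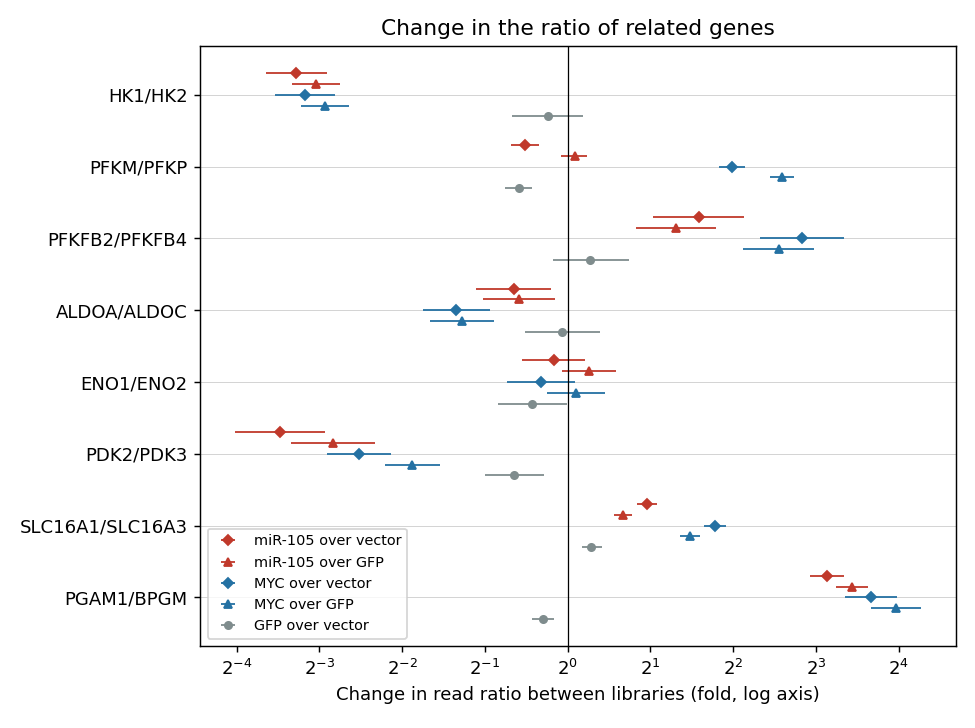
Change in the read ratio of paired genes between libraries on a log2-scaled axis, with 95% counting intervals; the vertical line marks no change. HK1/HK2 and PDK2/PDK3 lie left of the line in both labelled libraries against both controls, PFKM/PFKP lies wholly right of it with the MYC label alone, and all intervals of ENO1/ENO2 in the labelled libraries cross it.

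Aldolase cleaves fructose 1,6-bisphosphate. ALDOA, the main form of proliferating cells, stood at 1312 CPM (miR-105), 861 CPM (MYC), 908 CPM (GFP) and 1238 CPM (vector), and the labelled libraries did not lie past both controls by the threshold. ALDOC (17:28573115-28577264), the brain form, stood at 13.3 CPM (miR-105), 14.1 CPM (MYC), 6.14 CPM (GFP) and 8.0 CPM (vector). Both labelled libraries were above both controls for ALDOC, by 1.67-fold (1.21 to 2.31) over vector and 2.17-fold (1.59 to 2.97) over GFP with the miR-105 label. With the MYC label the same folds were 1.77-fold (1.33 to 2.37) and 2.30-fold (1.75 to 3.04). Its share of the pair per length was small in all libraries, 0.815% (miR-105) and 1.31% (MYC) against 0.544% (GFP) and 0.520% (vector).

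The enzymes that follow, from triose phosphate to phosphoglycerate, were higher in the miR-105-labelled library at every step. Triose phosphate isomerase, TPI1 (12:6867119-6870948), stood at 807 CPM (miR-105), 304 CPM (MYC), 209 CPM (GFP) and 278 CPM (vector). That is 2.90-fold (2.76 to 3.04) over vector and 3.85-fold (3.68 to 4.03) over GFP with the miR-105 label, while the MYC-labelled library was 1.09-fold and 1.45-fold over the same controls. Phosphoglycerate kinase, PGK1 (X:77910739-78129296), which makes the first ATP of the pathway, stood at 838 CPM (miR-105), 338 CPM (MYC), 385 CPM (GFP) and 389.8 CPM (vector). The miR-105-labelled library alone stood apart, 2.15-fold (2.06 to 2.24) over vector and 2.18-fold (2.10 to 2.26) over GFP.

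GAPDH (12:6533927-6538374), the NAD-dependent dehydrogenase between these steps and a common reference gene, was high in both labelled libraries and differed between the controls. It stood at 2498 CPM (miR-105), 2709.6 CPM (MYC), 999 CPM (GFP) and 1582 CPM (vector). GAPDH with the miR-105 label was 1.58-fold (1.54 to 1.61) above vector and 2.5-fold (2.44 to 2.56) above GFP. GAPDH with the MYC label was 1.71-fold (1.68 to 1.75) above vector and 2.71-fold (2.66 to 2.77) above GFP. The GFP library itself was 1.58-fold (1.55 to 1.62) below vector, as far as the miR-105-labelled library was above vector. GAPDH, TPI1, PGK1, PGAM1, ENO1 and LDHB have processed pseudogenes, and the sources used here do not say how shared reads were assigned.

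Phosphoglycerate mutase and bisphosphoglycerate mutase act on the same intermediates and differed in opposite directions in the miR-105-labelled library. PGAM1 (10:97426160-97433441), the glycolytic mutase, stood at 721 CPM (miR-105), 235 CPM (MYC), 221 CPM (GFP) and 226 CPM (vector). It was 3.19-fold (3.03 to 3.36) over vector and 3.27-fold (3.12 to 3.42) over GFP with the miR-105 label. These reads are uncertain, because the near-identical copy PGAM4 stood at 340.2 CPM (miR-105), 121 CPM (MYC) and 107 CPM (GFP), and was likewise 3.25-fold over vector and 3.19-fold over GFP with the miR-105 label.

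BPGM (7:134646808-134679813), which makes 2,3-bisphosphoglycerate and is best known from red cells, stood at 41.2 CPM (miR-105), 9.29 CPM (MYC), 136 CPM (GFP) and 113 CPM (vector). Both labelled libraries were below both controls, and the MYC-labelled library was the lowest. With the MYC label BPGM was 12.2-fold (9.92 to 15.2) below vector and 14.7-fold (12 to 18.2) below GFP. The miR-105-labelled library was 2.75-fold (2.40 to 3.16) below vector and 3.31-fold (2.91 to 3.78) below GFP. Of PGAM1 and BPGM together, per length, BPGM made up 4.86% (4.30 to 5.47) with the miR-105 label and 3.41% (2.78 to 4.14) with the MYC label, against 35.6% (34.2 to 36.9) in GFP and 30.9% (29.3 to 32.5) in vector. This pair was chosen after its values had been seen. The erythroid markers were at or under 0.941 CPM in sum in every library.

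Enolase makes phosphoenolpyruvate, and both of its genes were higher in the miR-105-labelled library while ENO1 made up over 99% of the pair in every library. ENO1 (1:8861000-8879250), the ubiquitous form, stood at 3801 CPM (miR-105), 1411 CPM (MYC), 949 CPM (GFP) and 1169 CPM (vector). ENO2 (12:6913745-6923698), the neuronal form, stood at 30 CPM (miR-105), 12.4 CPM (MYC), 8.96 CPM (GFP) and 8.22 CPM (vector). ENO1 with the miR-105 label was 3.25-fold (3.18 to 3.33) over vector and 4.01-fold (3.92 to 4.09) over GFP, and ENO2 3.65-fold (2.78 to 4.82) and 3.34-fold (2.65 to 4.23) over the same controls. The ENO1 to ENO2 read ratio was 0.892-fold (0.683 to 1.16) that of vector and 1.20-fold (0.955 to 1.5) that of GFP in the miR-105-labelled library. The MYC-labelled ratio was 0.798-fold (0.601 to 1.06) that of vector and 1.07-fold (0.838 to 1.37) that of GFP. All 4 of these intervals include 1, so a change from the controls was not detectable at this depth, while the GFP ratio was 0.744-fold (0.559 to 0.991) that of vector. ENO2 made up 0.580% to 0.777% of the pair per length in the 4 libraries.

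Pyruvate kinase, PKM (15:72199029-72231822), closes the pathway and was low with the MYC label. It stood at 2964 CPM (miR-105), 1028 CPM (MYC), 2153 CPM (GFP) and 2347 CPM (vector). Against the MYC-labelled library the miR-105-labelled library was 2.88-fold (2.81 to 2.95) higher, and against vector and GFP only 1.26-fold (1.24 to 1.29) and 1.38-fold (1.35 to 1.40) higher, short of the threshold. The values are per gene, so the splice forms PKM1 and PKM2 could not be told apart.

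Downstream of pyruvate, LDHB (12:21635342-21757857), the heart-type subunit of lactate dehydrogenase, was higher in both labelled libraries. It stood at 717 CPM (miR-105), 749.8 CPM (MYC), 237 CPM (GFP) and 359.8 CPM (vector). The miR-105-labelled library was 1.99-fold (1.90 to 2.08) over vector and 3.03-fold (2.89 to 3.17) over GFP. The MYC-labelled library was 2.08-fold (2.0 to 2.17) over vector and 3.17-fold (3.04 to 3.30) over GFP. The controls differed by 1.52-fold (1.45 to 1.59), GFP being lower. LDHB cannot be set beside LDHA, which is not analysed here, so no isozyme share is given for lactate dehydrogenase.

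Pyruvate dehydrogenase feeds pyruvate to the citric acid cycle and is switched off by its kinases. PDHA1, its catalytic alpha subunit, stood at 117 CPM (miR-105), 101 CPM (MYC), 63.3 CPM (GFP) and 73.7 CPM (vector). It was 1.59-fold (1.43 to 1.76) over vector and 1.85-fold (1.67 to 2.04) over GFP with the miR-105 label, and fell short of the threshold with the MYC label at 1.37-fold over vector. The kinase PDK2 (17:50094737-50112152) stood at 8.0 CPM (miR-105), 20.0 CPM (MYC), 47.2 CPM (GFP) and 52.6 CPM (vector). PDK3 (X:24465221-24541862), a kinase induced in hypoxia, stood at 22.0 CPM (miR-105), 28.3 CPM (MYC), 18.2 CPM (GFP) and 13.0 CPM (vector). PDK2 was lowest in the miR-105-labelled library and highest in the controls, while PDK3 was highest in the MYC-labelled library and lowest in vector.

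PDK2 was 6.58-fold (4.93 to 8.96) below vector and 5.91-fold (4.44 to 8.02) below GFP in the miR-105-labelled library, and 2.63-fold (2.23 to 3.11) below vector and 2.36-fold (2.02 to 2.77) below GFP in the MYC-labelled library. PDK3 was 2.19-fold (1.76 to 2.72) above vector and 1.56-fold (1.31 to 1.85) above GFP with the MYC label. Per length, PDK3 took 83.1% (78.0 to 87.4) of PDK2 and PDK3 in the miR-105-labelled library and 71.7% (68.0 to 75.3) in the MYC-labelled library, against 40.8% (37.3 to 44.4) in GFP and 30.6% (26.4 to 35.1) in vector. By coding length PDK3 took 72.9% (miR-105), 58.2% (MYC), 27.4% (GFP) and 19.5% (vector). The larger of the pair was PDK3 in the labelled libraries and PDK2 in the controls by both lengths. The pair is not the whole family, since PDK1 is not analysed here. PDK4, described below, stood above both genes at 107 CPM (MYC), 411 CPM (GFP) and 243 CPM (vector), and at 9.72 CPM with the miR-105 label. The PDK3 to PDK2 read ratio was 11.1-fold (7.64 to 16.3) that of vector and 7.12-fold (5.01 to 10.1) that of GFP in the miR-105-labelled library. The MYC-labelled ratio was 5.75-fold (4.41 to 7.51) that of vector and 3.68-fold (2.93 to 4.62) that of GFP, while GFP was 1.56-fold (1.22 to 2.0) vector. Exons of SAMD14 on the opposite strand cover 52.7% of the PDK2 exon bases, with a mean of 0.287 CPM listed for SAMD14.

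Lactate leaves or enters cells through the monocarboxylate transporters MCT1, encoded by SLC16A1, and MCT4, encoded by SLC16A3. SLC16A1 (1:112911847-112957013) stood at 314 CPM (miR-105), 154 CPM (MYC), 145 CPM (GFP) and 129.9 CPM (vector). SLC16A3 (17:82228397-82261129), the export form of glycolytic cells, stood at 571 CPM (miR-105), 159 CPM (MYC), 419 CPM (GFP) and 460.1 CPM (vector). The miR-105-labelled library was high for SLC16A1, 2.42-fold (2.25 to 2.60) over vector and 2.17-fold (2.04 to 2.31) over GFP. The MYC-labelled library was low for SLC16A3, 2.89-fold (2.73 to 3.06) below vector and 2.63-fold (2.49 to 2.78) below GFP. SLC16A1 took 37.8% (36.5 to 39.1) of the pair per length with the miR-105 label and 51.6% (49.9 to 53.3) with the MYC label, against 27.6% (26.6 to 28.7) in GFP and 23.8% (22.6 to 25) in vector. Which was larger with the MYC label depended on the length used, since SLC16A1 held 47.3% there by coding length and 49.2% (47.4 to 50.9) by reads alone.

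In the oxidative arm of the pentose phosphate pathway, PGD was higher and PGLS lower with the miR-105 label. PGD (1:10398592-10420144), which releases the second NADPH, stood at 185 CPM (miR-105), 133 CPM (MYC), 83.3 CPM (GFP) and 97.7 CPM (vector), and was 1.89-fold (1.74 to 2.07) over vector and 2.22-fold (2.05 to 2.41) over GFP with the miR-105 label. PGLS (19:17511629-17521288), the lactonase of the step before, stood at 42.0 CPM (miR-105), 52.9 CPM (MYC), 70.1 CPM (GFP) and 104 CPM (vector). PGLS was 2.48-fold (2.16 to 2.85) below vector and 1.67-fold (1.45 to 1.92) below GFP with the miR-105 label, where GFP was itself 1.49-fold (1.36 to 1.63) below vector.

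The non-oxidative arm interconverts sugar phosphates. Ribose phosphate isomerase, RPIA (2:88691644-88750935), stood at 30.9 CPM (miR-105), 20.8 CPM (MYC), 13.1 CPM (GFP) and 13.5 CPM (vector). It was higher in both labelled libraries, 2.29-fold (1.82 to 2.88) over vector and 2.35-fold (1.91 to 2.89) over GFP in the miR-105-labelled one. RPIA with the MYC label was 1.54-fold (1.23 to 1.93) over vector and 1.58-fold (1.29 to 1.93) over GFP, and both intervals reach below the 1.5-fold threshold. Against vector, GFP or both, intervals of other called genes given above also reach below 1.5-fold. These are ALDOC with both labels, PFKFB2, PDHA1 and PGLS with the miR-105 label, and PDK3 and PFKFB4 with the MYC label. The epimerase RPE stood at 81.7 CPM (miR-105), 50.5 CPM (MYC), 42.0 CPM (GFP) and 43.6 CPM (vector), 1.88-fold (1.64 to 2.14) over vector and 1.94-fold (1.72 to 2.19) over GFP with the miR-105 label. KANSL1L on the opposite strand covers 23.8% of the RPE exon bases. Transketolase, TKT, stood at 786 CPM (miR-105), 1159 CPM (MYC), 528 CPM (GFP) and 817 CPM (vector), and transaldolase, TALDO1, at 149 CPM (miR-105), 84.0 CPM (MYC), 107 CPM (GFP) and 137 CPM (vector). Neither was past both controls by the threshold in a labelled library, and for TKT the controls differed by 1.55-fold (1.5 to 1.60), GFP being lower.

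**Figure D4:**
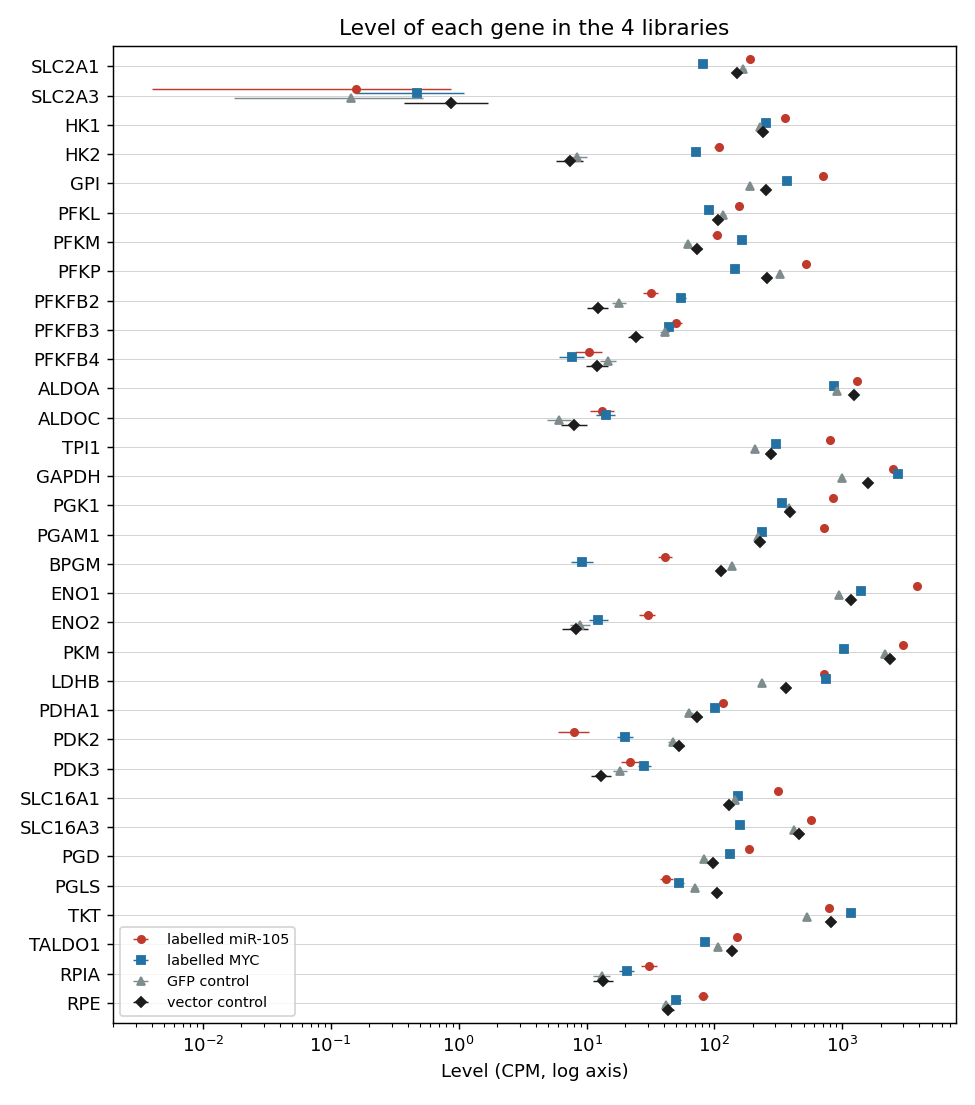
Level of each of the 33 genes with a line, in CPM on a log axis, in the miR-105-labelled, MYC-labelled, GFP and vector libraries; bars are exact Poisson 95% intervals. HK2, GPI, TPI1, PGAM1, ENO1 and ENO2 have the miR-105-labelled library on the right of both controls, BPGM and PDK2 have both labelled libraries on the left, and SLC2A3 lies below 1 CPM.

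Levels of different genes were compared per kilobase of transcript. In the miR-105-labelled library ENO1 stood first at 1621 CPM per kilobase, followed by GAPDH at 1332 and PKM at 1091. In the MYC-labelled library GAPDH stood first at 1445 CPM per kilobase, followed by ENO1 at 602 and ALDOA at 537, with PKM in place 6 at 379. PKM was first in both controls, at 792 CPM per kilobase in GFP and 864 in vector. HK2 ranked 24 of 33 in both labelled libraries, at 18.7 CPM per kilobase (miR-105) and 12.3 (MYC), and 32 in both controls, at 1.46 (GFP) and 1.29 (vector).

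Set directly against the MYC-labelled library, the miR-105-labelled library was at least 1.5-fold higher for 17 of the 32 genes, 53.1%, beside 30.3% of all genes. It was lower for 3, or 9.38% beside 29.3%: PFKM by 1.57-fold (1.43 to 1.72), PFKFB2 by 1.73-fold (1.47 to 2.04) and PDK2 by 2.5-fold (1.83 to 3.47). Among the higher, BPGM was 4.44-fold (3.51 to 5.66), PFKP 3.62-fold (3.41 to 3.85), SLC16A3 3.59-fold (3.39 to 3.81) and PGAM1 3.07-fold (2.92 to 3.23) over the MYC-labelled library. GAPDH and LDHB were close, at 0.922-fold (0.904 to 0.940) and 0.956-fold (0.921 to 0.991). Between the controls, the GFP library was at least 1.5-fold above vector for 1 gene of 32, PFKFB3, by 1.68-fold (1.44 to 1.97), beside 13.0% of all genes. It was lower for 3, GAPDH, LDHB and TKT, or 9.38% beside 6.99%.

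Of 75 further pathway genes, 71 had a line and 50 passed the filter. In the miR-105-labelled library 17 of the 50 were higher and 10 lower, 34% and 20% beside 24.0% and 24.7% of all genes, and the median log2 fold was 0.46 beside 0.01. The MYC-labelled library had 11 higher and 11 lower, 22% each beside 16.6% and 17.2%, and a median of 0.19 beside 0.04. The smaller groups below stand beside the same shares of all genes. Those at least 2-fold past both controls are named here. The fructose transporter SLC2A5 (GLUT5) was low with both labels, at 3.45 CPM (miR-105) and 2.84 CPM (MYC) against 42.3 CPM (GFP) and 60 CPM (vector). The transporters SLC2A9, which carries urate, and SLC2A13, which carries myo-inositol, were higher with both: SLC2A9 stood at 1.41 CPM (miR-105), 6.07 CPM (MYC), 0.289 CPM (GFP) and 0.216 CPM (vector). SLC2A9 passed the filter only through the labelled libraries, so its calls were partly set by the filter, and the counts of the 50 include it. SLC2A13 stood at 4.55 CPM (miR-105), 8.44 CPM (MYC), 1.37 CPM (GFP) and 0.973 CPM (vector). SLC2A12 was low with the miR-105 label, at 0.784 CPM beside 6.64 CPM (MYC), 7.80 CPM (GFP) and 3.03 CPM (vector).

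Of 8 genes of glycogen and glucose phosphate, 3 were higher and 0 lower with the miR-105 label, and 1 was higher and 4 lower with the MYC label. Brain-type glycogen phosphorylase, PYGB, stood at 1609 CPM (miR-105), 397 CPM (MYC), 1743 CPM (GFP) and 1818 CPM (vector), so the MYC-labelled library was 4.58-fold below vector and 4.39-fold below GFP. PGM2L1, which makes glucose 1,6-bisphosphate, stood at 26.2 CPM (miR-105), 5.78 CPM (MYC), 26.7 CPM (GFP) and 17.1 CPM (vector). PGM2, a phosphopentomutase, was higher with both labels, at 93.9 CPM (miR-105) and 78.6 CPM (MYC) against 37.3 CPM (GFP) and 38.4 CPM (vector). In the pentose phosphate list, the ribose phosphate pyrophosphokinases PRPS1 and PRPS2 were high with the miR-105 label. PRPS1 stood at 93.0 CPM (miR-105), 22.6 CPM (MYC), 17.6 CPM (GFP) and 23.2 CPM (vector), and PRPS2 at 83.0 CPM, 30.3 CPM, 23.5 CPM and 30.5 CPM in the same order of libraries. The endoplasmic reticulum enzyme H6PD was low with the miR-105 label, at 27.1 CPM beside 192 CPM (MYC), 212 CPM (GFP) and 154 CPM (vector), and the aldolase DERA was low with the MYC label, at 24.6 CPM beside 72.9 CPM (miR-105), 71.2 CPM (GFP) and 77.3 CPM (vector).

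Of 7 paralogs and side enzymes of the lower pathway, 3 were higher and 2 lower with the miR-105 label, and 1 was higher and 2 lower with the MYC label; they include PGAM4, given above. PGAM5, a mitochondrial phosphatase, stood at 115 CPM (miR-105), 36.6 CPM (MYC), 23.9 CPM (GFP) and 23.8 CPM (vector), and the repair phosphatase PGP at 58.0 CPM (miR-105), 11.7 CPM (MYC), 20.2 CPM (GFP) and 18.3 CPM (vector). Muscle PGAM2 was low with both labels, at 0.941 CPM (miR-105) and 3.22 CPM (MYC) against 11.3 CPM (GFP) and 7.14 CPM (vector), and PKLR was low with the miR-105 label, at 0.314 CPM beside 2.94 CPM (MYC), 1.16 CPM (GFP) and 2.27 CPM (vector). That PKLR level was 2 reads, and its interval against GFP, 3.68-fold (0.866 to 33.0) lower, includes 1. The malic enzymes, which make pyruvate from malate, were high with the miR-105 label: ME1 stood at 66.0 CPM (miR-105), 41.9 CPM (MYC), 24.8 CPM (GFP) and 19.7 CPM (vector), and ME2 at 93.3 CPM (miR-105), 39.2 CPM (MYC), 28.1 CPM (GFP) and 24.1 CPM (vector). Pyruvate carboxylase, PC, was high with the MYC label, at 239.7 CPM beside 29.8 CPM (miR-105), 58.7 CPM (GFP) and 76.5 CPM (vector).

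Around pyruvate dehydrogenase, the kinase PDK4, like PDK2, was lowest with the miR-105 label and highest in the controls. It stood at 9.72 CPM (miR-105), 107 CPM (MYC), 411 CPM (GFP) and 243 CPM (vector), 25-fold below vector with the miR-105 label and 2.28-fold below it with the MYC label. The complex subunit DLAT stood at 144 CPM (miR-105), 95.8 CPM (MYC), 56.1 CPM (GFP) and 55.2 CPM (vector), and PDHX at 55.7 CPM (miR-105), 71.4 CPM (MYC), 33.2 CPM (GFP) and 32.2 CPM (vector). Both were above both controls in the labelled libraries. The phosphatase PDP2, which reactivates the complex, stood at 53.8 CPM (miR-105), 46.6 CPM (MYC), 23.8 CPM (GFP) and 21.6 CPM (vector), while PDP1 was low with the MYC label, at 19.4 CPM beside 53.8 CPM (miR-105), 82.6 CPM (GFP) and 62.8 CPM (vector).

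Of 5 genes of glucose sensing, 0 were higher and 2 lower with the miR-105 label, and 1 was higher and 1 lower with the MYC label. The 1 higher gene, MLXIPL, passed the filter only through the MYC-labelled library, so that call was partly set by the filter. TXNIP, which limits glucose uptake and is induced by glucose through MLX complexes, stood at 117 CPM (miR-105), 1669.5 CPM (MYC), 2943 CPM (GFP) and 2222 CPM (vector), so the miR-105-labelled library was 19.1-fold below vector and 25.3-fold below GFP. Its relative ARRDC4 stood at 15.5 CPM (miR-105), 29.2 CPM (MYC), 100.3 CPM (GFP) and 44.8 CPM (vector). MLXIPL, which encodes the glucose-responsive factor ChREBP, had no read in the miR-105-labelled library, where 3 reads would be 0.471 CPM and the exact Poisson upper limit is 0.579 CPM, and stood at 4.27 CPM (MYC), 0.144 CPM (GFP) and 0.649 CPM (vector).

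Other measures differed between the libraries beside these genes. All 7 proliferation genes measured were higher in the miR-105-labelled library, beside 24.0% of all genes, and 3 of them were higher with the MYC label, beside 16.6%. Their levels summed to 3819.7 CPM with the miR-105 label, against 145 CPM with the MYC label, 90.5 CPM in GFP and 106 CPM in vector. MXI1, an antagonist of MYC, stood at 14.0 CPM (miR-105), 79.2 CPM (MYC), 88.9 CPM (GFP) and 81.2 CPM (vector). HIF1A stood at 347 CPM (miR-105), 161 CPM (MYC), 157 CPM (GFP) and 118 CPM (vector). Of 15 hypoxia genes outside the pathway, HIF1A included, 2 were higher with the miR-105 label, HIF1A and CA9, and 3 were lower, 13.3% and 20% beside 24.0% and 24.7% of all genes. With the MYC label 3 were higher and 4 lower, 20% and 26.7% beside 16.6% and 17.2%. CA9 was low throughout, at 1.88 CPM (miR-105), 1.99 CPM (MYC), 0.0722 CPM (GFP) and 0.324 CPM (vector). It passed the filter only through the labelled libraries, so its place among the higher genes with either label was partly set by the filter. The part of any of these in the differences of the glycolytic genes was not tested.

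Because a library carries the miR-105 label, the letters that pair with its seed were counted in the set, a search chosen after the values had been seen. The mature RNA of MIR105-1 (chrX:152392265-152392287, minus strand) and MIR105-2 (chrX:152394458-152394480, minus strand) is the same, as given by RefSeq on GRCh38.p14. The seed, bases 2 to 8, is in capitals, as is the complementary site in the 3′ untranslated region of HK2, which is shown because HK2 held 2 such sites.
miR-105-5p: uCAAAUGCucagacuccuguggu
HK2 site: tcatctacaaGCATTTGccctgtggat
The site GCATTTG occurred in the longest annotated 3′ untranslated region of 3 of the 32 genes, HK2, PFKFB2 and PFKFB4, or 9.38%, beside 17% of 12093 genes that passed the filter. Of the 3 genes lower in the miR-105-labelled library, BPGM, PDK2 and PGLS, none had it, but 3 genes are too few to set beside 17%. HK2 and PFKFB2 were higher there. PFKFB4 was not past the threshold, at 0.868-fold (0.631 to 1.19) vector and 0.713-fold (0.533 to 0.944) GFP. A match to these letters is a description and not a measured site.

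Every difference above rests on 1 library per construct. The GFP and vector libraries differed from each other by at least 1.5-fold for 4 of the 32 genes, PFKFB3, GAPDH, LDHB and TKT. Among the 12484 genes that passed the filter, the GFP level exceeded the vector level by that margin in 13.0%. In a further 6.99% it lay below the vector level by that margin. Differences of that size were thus present between lines labelled with neither miR-105 nor MYC, in the set and outside it.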

How the data were processed

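Poly(A) RNA-seq of 4 MCF10A lines was used, 1 library per construct. Reads were aligned with TopHat2 to hg19 and processed with edgeR, per the submitters' processing notes, which give no versions. Those notes name no read counter, annotation or strand setting, which are not given in the sources used. The deposited values were a normalised signal per gene and library and not the raw counts that had been assumed. Their form was that of edgeR's pseudo-counts, in which vector and GFP had been adjusted as 1 group. Inverting that adjustment at a dispersion of 0.0553 returned whole reads for 100% of the 18859 values of each library, with a largest relative residual of 8.12e-08 against a tolerance of 1e-05. The inversion was tested on simulated data and returned 100% of 18859 values exactly in each library. Dropping 19 repeated lines left 18840 genes.

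From the recovered reads, CPM were computed with TMM factors of 0.929 (miR-105), 1.08 (MYC), 0.987 (GFP) and 1.01 (vector) in edgeR 4.0.16 under R 4.3.3, so that 1 read was worth 0.157, 0.0948, 0.0722 and 0.108 CPM in that order. Genes whose mean reached 1 CPM were compared on log2(CPM + 0.5), a scale that shrinks the folds of low genes. A fold printed for 1 gene is a plain CPM ratio, with an exact conditional binomial (Clopper-Pearson) 95% interval. Shares have exact binomial intervals and read ratios logit intervals, or exact conditional ones for counts under 10. All cover counting error only, and without molecular identifiers PCR copies of a molecule are counted again. Shares and levels per length used the longest principal coding transcript of GENCODE 29 (GRCh38), whose coordinates are given for genes, not the build of the alignment. Promoters and miRNAs came from RefSeq, GRCh38.p14.

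With 1 library per group no test was the main result. All members are accounted for. Those at least 1.5-fold past both controls in a labelled library and all members of isozyme families are given by library, and other pathway genes are named where they lay at least 2-fold past both controls. Members, lists and rules were chosen with earlier results of these data known. As alternatives, edgeR's quasi-likelihood test and DESeq2 1.42.0 were run with vector and GFP as 1 group, which leaves 1 residual degree of freedom, and scaling, filter, pseudocount, fold threshold and control library were changed in turn.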

Additional observations from a re-analysis of the deposited data

How the results depend on the processing

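No paired analysis was possible because each construct had 1 library and the labels carry no replicate numbers that pair them. Under the alternatives run, neither median and no called gene changed direction. The median log2 fold of the set in the miR-105-labelled library, 0.81, was 0.70 with library totals alone, 0.76 with a pseudocount of 2 CPM, and 0.72 to 0.78 when a single control was kept. In the MYC-labelled library the median of 0.29 was 0.39 with library totals alone, 0.34 with the values as deposited, 0.24 without a filter, and 0.20 to 0.23 with a single control. Library totals alone moved the median of all genes to −0.09 with the miR-105 label and 0.14 with the MYC label. They left 14 genes higher with the miR-105 label, beside 21.6% of all genes, without ALDOC, GAPDH and PDHA1. They gave 10 higher with the MYC label, beside 20.1%, adding GPI and TKT, and 6 lower, beside 15.3%, without PFKFB4. At 2-fold, 9 genes were higher and 2 lower with the miR-105 label, beside 14.7% and 16.6% of all genes. With the MYC label 4 were higher and 4 lower, beside 9.03% and 10.4%. With vector alone as control, 19 were higher and 3 lower with the miR-105 label, beside 31.0% and 29.3% of all genes, and 9 and 9 with the MYC label, beside 24.2% and 21.7%. With GFP alone the counts were 19 and 3, beside 28.3% and 31.0%, and 12 and 7, beside 23.1% and 23.6%. The calls of the edgeR and DESeq2 tests are given in the Results, beside the shares of all genes. These tests treat the controls as replicates and compare these libraries, not conditions. Over all alternatives, 31 of the values of single genes and 52 of the isozyme shares moved by more than the spread between the controls or the counting interval, and 431 and 108 did not. Of the medians 8 were also classed as moved and 10 were not, and of the counts of genes in the set 7 were and 41 were not.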
